A study of Homo sapiens with 15 samples.

Results

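Fibronectin (FN1), the metalloproteinases MMP1, MMP2, and MMP14, the inhibitors TIMP1, TIMP2, and TIMP3, and the urokinase pair PLAU and PLAUR were followed over the 5 conditions of an RNA sequencing experiment in osimertinib-resistant lung adenocarcinoma cells. These 9 genes were taken by symbol from a table of 19612 gene symbols, and all 9 were found. H1975 is an established human lung adenocarcinoma line whose EGFR carries the T790M and L858R mutations. H1975–OR is the line derived from it by culture in osimertinib, an EGFR inhibitor, and its growth medium contained 500 nM osimertinib. Vehicle-treated H1975 cells (Samples 1a, 1b, and 1c) stood beside H1975–OR cells given vehicle (Samples 2a, 2b, and 2c), 100 nM 1,25(OH)2D3, the active hormone made from vitamin D (Samples 3a, 3b, and 3c), 500 nM osimertinib (Samples 4a, 4b, and 4c), or both agents (Samples 5a, 5b, and 5c). All 5 groups were in medium with charcoal stripped serum for 96 h, were dosed at 0, 48, and 92 h, and came from 3 separate passages each. Both lines are labelled with the same EGFR mutations, and the resistant state was represented by H1975–OR alone.

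Fibronectin is a secreted glycoprotein that cells assemble into fibrils and grip through integrins, and its gene is widely used as a marker of mesenchymal cells. The metalloproteinases are zinc enzymes that cut matrix proteins, with MMP1 cleaving fibrillar collagen, MMP2 cleaving denatured collagen and basement membrane, and MMP14 anchoring in the membrane, where it activates pro-MMP2 together with TIMP2. The tissue inhibitors of metalloproteinases bind the active site of these enzymes. Urokinase, the product of PLAU, converts plasminogen to plasmin at the cell surface while bound to its receptor, the product of PLAUR. These genes are often followed in carcinoma cells that lose epithelial traits, and the study compared such a resistant line with and without 1,25(OH)2D3.

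The promoters of the fibronectin gene and of the urokinase pair are shown because FN1 and PLAU fell in H1975–OR and PLAUR encodes the receptor of the PLAU product. Each line holds the 250 bases before the RefSeq transcription start (GRCh38.p14), written 5′ to 3′ on the strand of the gene, and the capitals mark matches to the Sp1 letters GGGCGG or the AP-1 letters TGANTCA on either strand.
FN1, chr2:215436069-215436318, minus strand: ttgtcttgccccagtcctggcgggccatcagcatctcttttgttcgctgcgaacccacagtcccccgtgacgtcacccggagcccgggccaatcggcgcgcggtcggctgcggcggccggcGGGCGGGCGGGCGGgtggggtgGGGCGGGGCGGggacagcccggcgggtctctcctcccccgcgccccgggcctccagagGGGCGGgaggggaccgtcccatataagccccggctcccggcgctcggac
PLAU, chr10:73910882-73911131, plus strand: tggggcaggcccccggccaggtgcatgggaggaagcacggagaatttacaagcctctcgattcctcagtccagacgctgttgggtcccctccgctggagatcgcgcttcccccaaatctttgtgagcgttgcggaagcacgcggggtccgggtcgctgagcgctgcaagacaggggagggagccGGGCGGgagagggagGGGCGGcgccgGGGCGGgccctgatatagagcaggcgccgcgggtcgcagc
PLAUR, chr19:43670170-43670419, minus strand: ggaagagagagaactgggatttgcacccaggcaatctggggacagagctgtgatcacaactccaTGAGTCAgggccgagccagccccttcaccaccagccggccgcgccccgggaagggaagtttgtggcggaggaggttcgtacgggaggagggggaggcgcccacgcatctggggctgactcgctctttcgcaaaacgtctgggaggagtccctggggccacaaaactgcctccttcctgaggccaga
The FN1 window held 6 Sp1 matches, some of them overlapping, and neither an AP-1 match nor a match to the ETS core AGGAAG. In the PLAU window, which precedes the start of the canonical transcript, there were 3 Sp1 matches and 1 ETS match. A second RefSeq entry for PLAU, with a start farther upstream, held none of the 3 motifs. The PLAUR window held 1 AP-1 match, 186 to 180 bases before the start, and 1 ETS match, and the AP-1 letters were found in no other window of the 6 members that had an entry. Of 35116 RefSeq promoter windows of this length, 42.6% held the Sp1 letters, 28.7% the ETS core, and 6.6% the AP-1 letters. The other windows were those of TIMP1 with 2 Sp1 matches and 1 ETS match, TIMP3 with 5 Sp1 matches, and MMP14 with 1 Sp1 match. The CArG box, which was also searched, was in none of them. MMP1, MMP2, and TIMP2 had no entry.

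In the GENCODE release 44 annotation of GRCh38, FN1 lies at chr2:215360440-215436073 on the minus strand with 46 exons in its canonical transcript. MMP1 is at chr11:102789401-102798160 (minus), MMP2 at chr16:55389700-55506691 (plus), and MMP14 at chr14:22836560-22849041 (plus). The inhibitors are at chrX:47582408-47586789 (TIMP1, plus), chr17:78852977-78925387 (TIMP2, minus), and chr22:32801705-32863041 (TIMP3, plus). PLAU is at chr10:73909177-73917496 (plus) and PLAUR at chr19:43646095-43670547 (minus). Among genes that overlap a member in exons, C10orf55 shares 915 exonic bases with PLAU on the opposite strand and held between 0 and 23 counts in a library, and CEP295NL shares 224 bases with TIMP2 on the same strand and held between 0 and 7 counts. PLAU held at least 586 counts and TIMP2 at least 345 counts in each library.

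The libraries held between 4378030 and 6140120 estimated counts. Values are given as CPM, counts scaled to the library total with the TMM factors of edgeR, and 3 counts, the limit that a count of 0 allows, corresponded to between 0.476 and 0.707 CPM. Sample 3a correlated with its own group at a mean r of 0.912 against 0.935 to 0.965 in the other 14 libraries, and its mitochondrial share was 1.54% against 0.424% to 1.05%. The authors left Sample 3a out, so the fits here left it out too, and its values are given beside the others. CYP24A1, the vitamin D-induced catabolic enzyme, rose by 7.71 on the log2 scale with 1,25(OH)2D3 (SE 0.38, adjusted p = 0.000183, quasi-likelihood test of edgeR, adjusted by Benjamini-Hochberg). Of the 11 lung epithelial markers, 9 were tested, of which 4 fell and 1 rose in H1975–OR against H1975, with EPCAM, the epithelial adhesion molecule, at a log2 fold change of -3.69 (adjusted p = 0.000596, edgeR). NAPSA and SFTPB, markers of differentiated lung epithelium, were under 5 CPM in all libraries. Of the 4 mesenchymal markers, 3 were tested and ZEB1 and ZEB2 rose. Over all genes tested between the lines, 20.1% were called. Fibroblast markers summed to between 2.73 and 7.09 CPM in H1975 and between 53.3 and 109 CPM in vehicle-treated H1975–OR, mostly from COL3A1 and PDGFRB, while DCN, PDGFRA, THY1, and FAP were under 5 CPM in all 15 libraries, and the part of these markers in the results between the lines was not tested. The summed endothelial markers reached no more than 17.3 CPM, and the leukocyte markers no more than 7.96 CPM apart from Sample 3a with 52.2. In bulk RNA, fewer cells that express a gene and less RNA per cell cannot be told apart.

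**Figure D1:**
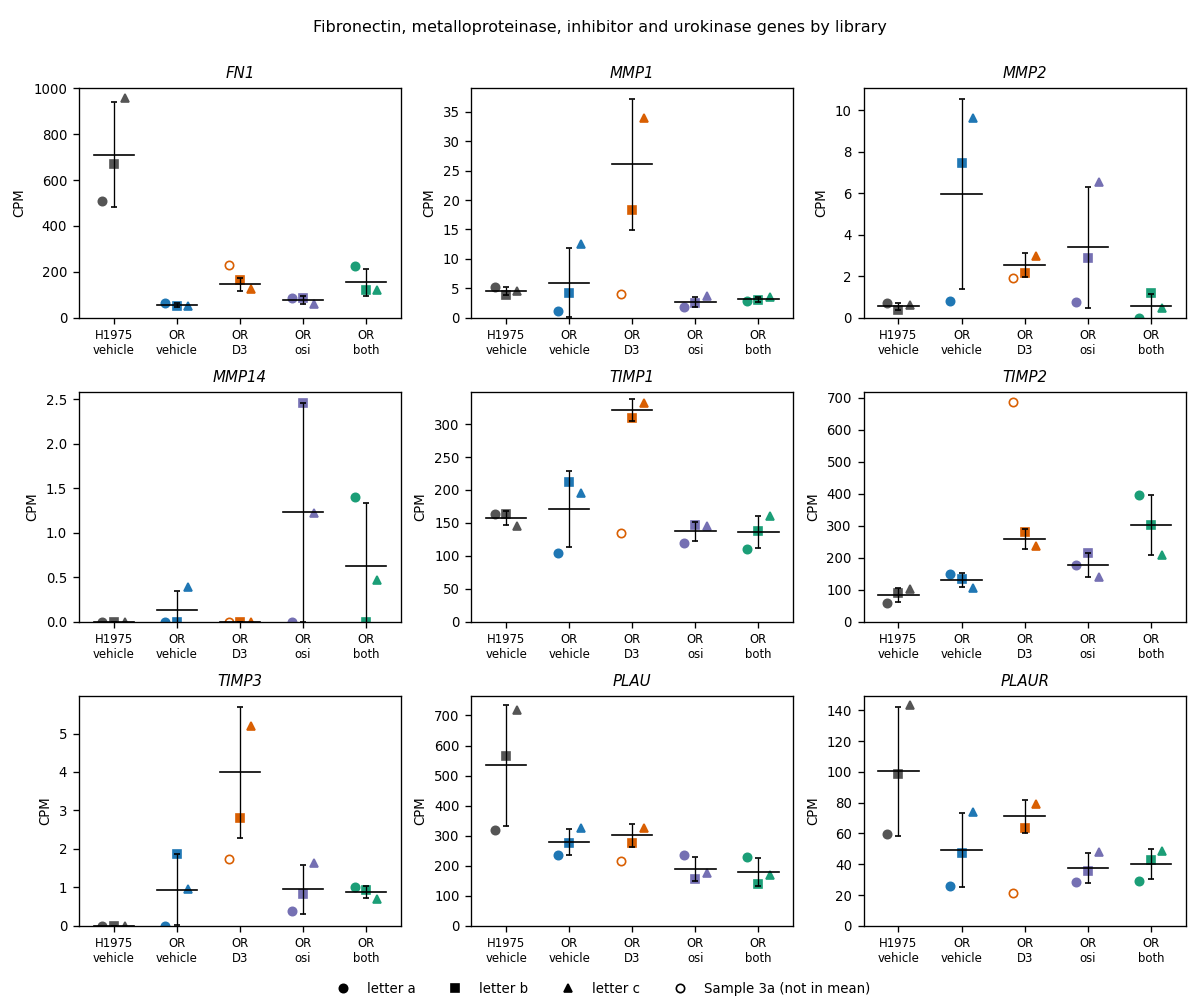
CPM of the 9 genes (vertical axes, linear from 0) in the 15 libraries of the 5 groups (horizontal axes; OR, H1975–OR; D3, 1,25(OH)2D3; osi, osimertinib; both, both agents). Symbols give the replicate letter, horizontal lines the group mean, vertical bars the SD, and the open circle Sample 3a, which is not in the mean. FN1 lies between 508 and 956 CPM in H1975 and at or below 229 CPM in every H1975–OR library.

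The genes differed widely in level, which is compared between genes per kilobase of the canonical transcript. This takes the deposited counts as not already scaled for transcript length, which was not stated. In vehicle-treated H1975 cells, PLAU (228 CPM per kilobase) and TIMP1 (205) were the highest, followed by FN1 (84.8), PLAUR (73.5), and TIMP2 (23.1). MMP1 stood at 2.28 CPM per kilobase and MMP2 at 0.158, and MMP14 and TIMP3 had no counts in the 3 H1975 libraries. Neighbours in this order whose libraries overlapped were PLAU and TIMP1, and FN1 and PLAUR. The order was another in vehicle-treated H1975–OR cells, where TIMP1 (222 CPM per kilobase) came before PLAU (119), and PLAUR (35.8) and TIMP2 (35.6) came before FN1 (6.69). There the libraries of TIMP1 overlapped with those of PLAU, those of PLAUR with those of TIMP2, and those of FN1, MMP1 (3.02 CPM per kilobase), MMP2 (1.70), TIMP3 (0.205), and MMP14 (0.0347) each with those of the next gene. TIMP1 kept the first place in the 3 treated groups, with 417 CPM per kilobase for 1,25(OH)2D3, 178 for osimertinib, and 177 for both agents. TIMP2 was below PLAU with 1,25(OH)2D3 (70.9 against 128) and with osimertinib (48.9 against 80.9), and the pair stood at 82.8 and 76.2 CPM per kilobase with both agents. MMP14, the membrane metalloproteinase, had 0 counts in 10 of the 15 libraries and reached 12 counts (2.45 CPM) in Sample 4b, so it did not pass the filter on low counts and was not tested. The other 8 of the 9 members passed it in both fits.

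Of the 8 members tested, FN1 and PLAU fell and MMP2 rose, so 3 were called at an adjusted p under 0.05, where 20.1% of the 12513 genes tested were called (9.89% higher and 10.3% lower). At an unadjusted p under 0.05, 6 of the 8 passed, against 34.6% of all genes tested, and DESeq2 called the same 6 (FN1, MMP2, PLAU, PLAUR, TIMP2, and TIMP3). The median log2 fold change over the 8 was 0.28, against 0.01 over all genes tested. It was the same with TIMP3 at the value given below, where H1975 is set to 3 counts per library. These comparisons used edgeR's quasi-likelihood test in 1 fit of 8 libraries, and the p-values measure the spread between the 3 passages.

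FN1, the fibronectin gene, was at 508, 668, and 956 CPM in Samples 1a, 1b, and 1c. In vehicle-treated H1975–OR cells it was at 65.4, 52.3, and 50.6 CPM in Samples 2a, 2b, and 2c. The groups did not overlap, and the lowest H1975 library was far above the highest H1975–OR library. The group means were 711 ± 227 CPM in H1975 and 56.1 ± 8.08 CPM in H1975–OR (SD, n = 3 each). FN1 was 12.5-fold lower in H1975–OR (log2 fold change -3.65, SE 0.25, adjusted p = 0.000151), and it passed in all 14 alternative analyses, with log2 fold changes between -3.86 and -3.40.

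The collagenase and gelatinase genes were low in both lines. MMP2 was at 0.692, 0.364, and 0.609 CPM in the H1975 libraries, from 4, 2, and 3 counts. It was at 0.817, 7.44, and 9.63 CPM in Samples 2a, 2b, and 2c, from 4, 36, and 50 counts. The groups did not overlap, but Sample 2a lay close to the H1975 libraries and Samples 2b and 2c lay well above them. MMP2 passed with a log2 fold change of 3.38 (SE 0.88, adjusted p = 0.0289), and it did not pass in 6 of the 12 alternatives that kept it. MMP1 was at 5.19, 3.82, and 4.47 CPM in H1975 and at 1.23, 4.13, and 12.5 CPM in vehicle-treated H1975–OR. The H1975–OR libraries of MMP1 lay on either side of the H1975 libraries, and its log2 fold change of 0.42 (95% interval -1.13 to 1.97) did not pass.

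None of the 3 inhibitor genes passed between the lines. TIMP2, the inhibitor that also takes part in MMP2 activation, was at 59.7, 91.2, and 102 CPM in H1975 and at 148, 135, and 107 CPM in vehicle-treated H1975–OR. The groups of TIMP2 did not overlap, although Samples 1c and 2c were close, and the log2 fold change was 0.64 (SE 0.21, adjusted p = 0.0593). TIMP1, the inhibitor of many secreted metalloproteinases, was at 163, 164, and 146 CPM in H1975 and at 105, 212, and 196 CPM in H1975–OR. Those groups overlapped, and the log2 fold change of 0.13 had a 95% interval of -0.39 to 0.65. TIMP3, the matrix-bound inhibitor, had no counts in H1975 and 0, 9, and 5 counts (0, 1.86, and 0.963 CPM) in Samples 2a, 2b, and 2c. With H1975 set to 3 counts per library, the H1975–OR mean of TIMP3 was 1.68-fold higher. Sample 2a had no counts either, so the groups overlapped, and TIMP3 did not pass (adjusted p = 0.089, edgeR).

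Of the urokinase pair, PLAU fell in H1975–OR and PLAUR did not pass. PLAU, which encodes urokinase, was at 319, 567, and 717 CPM in H1975 and at 236, 276, and 324 CPM in vehicle-treated H1975–OR. The groups overlapped, since Sample 1a lay below Sample 2c. PLAU was 1.89-fold lower (log2 fold change -0.92, SE 0.26, adjusted p = 0.0413), and it did not pass in 7 of 14 alternatives. PLAUR, which encodes the urokinase receptor, was at 59.7, 98.5, and 143 CPM in H1975 and at 25.7, 47.5, and 73.8 CPM in H1975–OR. These groups overlapped too, and PLAUR did not pass (log2 fold change -1.02, SE 0.40, adjusted p = 0.107).

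Other genes of extracellular proteolysis moved in both directions between the lines. Of 34 listed genes, 18 were tested, 3 rose, and 2 fell, where 20.1% of all genes tested were called. The median log2 fold change was -0.05, against 0.01 over all genes. PLAT, the tissue plasminogen activator, rose by 1.25 on the log2 scale (SE 0.23, adjusted p = 0.00702, edgeR). S100A10, a subunit of a cell surface receptor for plasminogen, rose by 0.99 (adjusted p = 0.033, edgeR), and BSG, the inducer of metalloproteinases known as basigin, rose by 1.13 (adjusted p = 0.00818, edgeR). Those that fell were MMP13, collagenase 3 (log2 fold change -2.31, adjusted p = 0.0213, edgeR), and TIMP4, a further member of the inhibitor family (log2 fold change -1.40, adjusted p = 0.0425, edgeR). The other genes of the list included 5 with no counts in any library, among them PLG, the plasminogen gene.

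Receptors and matrix partners of fibronectin also moved both ways. Of 18 listed genes, 16 were tested, 3 rose, and 4 fell, where 20.1% of all genes tested were called. The median log2 fold change was -0.21, against 0.01 over all genes. ITGA5, the alpha subunit of the classical fibronectin receptor, fell by 1.89 on the log2 scale (SE 0.21, adjusted p = 0.000983, edgeR), while its partner ITGB1 was at mean levels of 1453 CPM in H1975 and 1206 CPM in H1975–OR and did not pass. ITGB6, a subunit of an integrin that binds fibronectin and activates latent TGF-beta, was at 12.6, 49.7, and 65.6 CPM in H1975 and had no counts in any H1975–OR library, which made it at least 70.7-fold lower in vehicle-treated H1975–OR, with that group set to 3 counts per library. SDC1 fell by 1.99 (adjusted p = 0.000151, edgeR) and SDC2, another syndecan, rose by 3.64 (adjusted p = 0.000192, edgeR). TNC and THBS1, matrix glycoproteins, rose by 1.29 and 0.92, and LTBP1, which tethers latent TGF-beta to the matrix, fell by 2.24. Of 11 AP-1 and ETS genes, 10 were tested, ETV5 rose by 1.12 (adjusted p = 0.0288, edgeR) and FOSL1, an AP-1 subunit, fell by 1.32 (adjusted p = 0.00412, edgeR). The share called over all genes tested was again 20.1%.

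**Figure D2:**
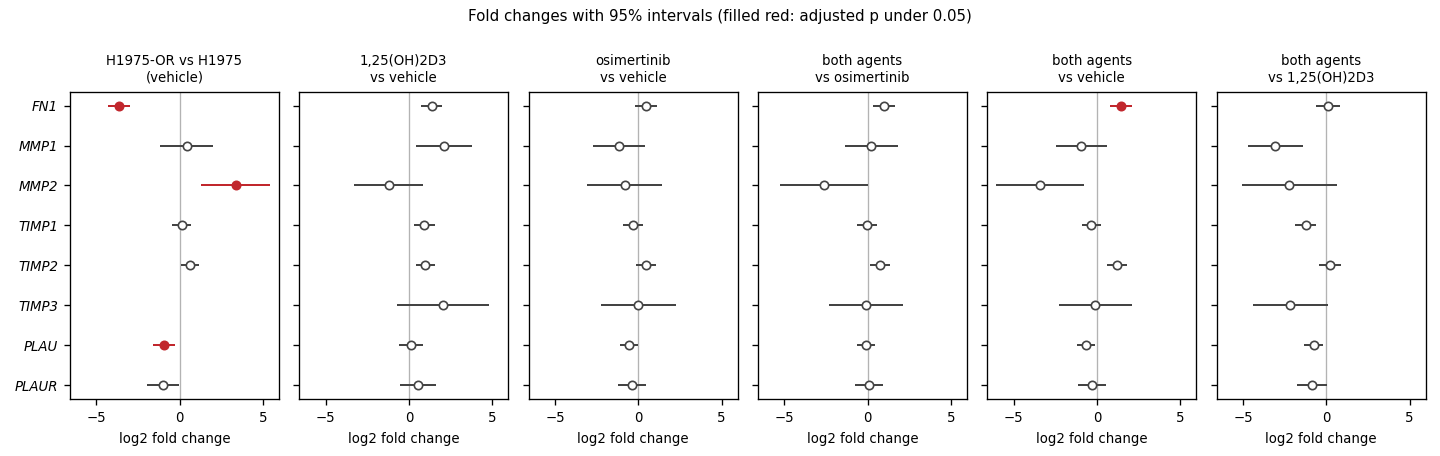
Log2 fold changes (horizontal axes) with 95% intervals of the 8 members that passed the filter, from edgeR's quasi-likelihood fits, with 1 panel for each comparison. Filled red circles have an adjusted p under 0.05, and TIMP3 is left out of the first panel because H1975 had no counts. FN1, MMP2, and PLAU are filled for H1975–OR against H1975, and FN1 alone for both agents against vehicle.

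Within H1975–OR, the next comparisons asked whether 1,25(OH)2D3 moved these genes when given alone or with osimertinib. The vehicle, 1,25(OH)2D3, osimertinib, and combined libraries each served in several comparisons, so those are not independent of each other. With 1,25(OH)2D3 alone, 0 of the 8 members tested passed (edgeR), where 0.152% of 12513 genes were called. At an unadjusted p under 0.05, 4 of the 8 (FN1, MMP1, TIMP1, and TIMP2) passed, against 7.27% of all genes, and DESeq2 called FN1 and TIMP2. The median log2 fold change of the members was 0.95, against -0.01 over all genes, and 7 of the 8 were above 0.

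FN1 was at 165 and 126 CPM in Samples 3b and 3c and at 229 CPM in Sample 3a. All 3 libraries lay above the 3 vehicle libraries, whose highest value was 65.4 CPM. The log2 fold change without Sample 3a was 1.37 (SE 0.26, adjusted p = 0.125, edgeR), a 2.59-fold difference, and 1.63 with it (adjusted p = 0.0858, edgeR). Relative to the vehicle-treated library with its own letter, FN1 was 3.50-, 3.15-, and 2.48-fold higher for letters a, b, and c. By the rule given below, the letters did not pair these groups (correlations of 0.07 for b and 0.108 for c, with letter a not assessed). Same-letter ratios to vehicle, here and for the other members with this agent alone, are therefore descriptive and not ratios of pairs. The FN1 levels of Samples 3a, 3b, and 3c remained below those of H1975, whose lowest library held 508 CPM. With the replicate letter as a block, the planned fit of 8 libraries called 0 members, as did 11 H1975–OR libraries without the block. An added fit of 11 H1975–OR libraries with the block, chosen after the data had been seen, called FN1 (adjusted p = 0.0171, edgeR) and TIMP2 (adjusted p = 0.0274, edgeR). Over the alternatives the adjusted p ran from 0.00011 to 0.535 for FN1 and from 0.011 to 0.702 for TIMP2.

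None of the inhibitor genes passed with 1,25(OH)2D3. TIMP2 was at 280.3 and 238 CPM in Samples 3b and 3c and at 687 CPM in Sample 3a, against at most 148 CPM with vehicle. The groups did not overlap, and the log2 fold change without Sample 3a was 0.99 (SE 0.22, adjusted p = 0.25, edgeR) and with it 1.64 (adjusted p = 0.312, edgeR). TIMP1 was at 309 and 332 CPM in Samples 3b and 3c, above all vehicle libraries, but at 134 CPM in Sample 3a, among them. Its log2 fold change without Sample 3a was 0.91 (SE 0.25, adjusted p = 0.45, edgeR) and with it 0.60 (adjusted p = 0.708, edgeR). TIMP1 was 1.88-fold higher in the fit without Sample 3a, and 1.28-, 1.46-, and 1.70-fold higher within letters a, b, and c. TIMP3 was at 1.74, 2.79, and 5.20 CPM in Samples 3a, 3b, and 3c, so that Sample 3a lay within the vehicle range and the others above it, from 11, 13, and 28 counts.

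Among the proteases, MMP1 was at 3.97, 18.2, and 34.0 CPM in Samples 3a, 3b, and 3c. Samples 3b and 3c lay above all vehicle libraries and Sample 3a among them, with a log2 fold change of 2.12 without Sample 3a (SE 0.72, adjusted p = 0.532, edgeR) and 1.64 with it (adjusted p = 0.683, edgeR). With single libraries left out, the log2 fold change of MMP1 ran from 1.61 (without Sample 3c) to 3.28 (without Sample 2c). In each letter MMP1 was higher than in the vehicle library of that letter, by 3.24-, 4.41-, and 2.71-fold. MMP2 was at 1.90, 2.15, and 2.97 CPM, within the range of the vehicle libraries, with a log2 fold change without Sample 3a of -1.21 (SE 0.89, adjusted p = 0.835, edgeR). The ratio of MMP2 to the vehicle library of its letter was 2.33 for a, 0.289 for b, and 0.309 for c, so letter a went the other way. MMP14 had no counts in these 3 libraries. PLAU was at 216, 274, and 327 CPM against 236 to 324 CPM with vehicle, a log2 fold change of 0.11 with a 95% interval of -0.56 to 0.78. PLAUR was at 21.1, 63.5, and 78.9 CPM, which overlapped with the vehicle group, and its log2 fold change of 0.54 had an interval of -0.46 to 1.54. The ratios of PLAUR to the vehicle library of the same letter were 0.82, 1.34, and 1.07 for a, b, and c.

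Osimertinib alone, given to cells that had been maintained in it, left all 8 tested members short of the threshold against vehicle. None was called by edgeR or DESeq2, where edgeR called 0.048% of 12503 genes, and 1 of the 8, PLAU, had an unadjusted p under 0.05, against 7.53% of all genes. PLAU was at 235, 156, and 176 CPM in Samples 4a, 4b, and 4c. All were below the vehicle libraries, Sample 4a only by a narrow margin, and the log2 fold change was -0.55 (SE 0.22, adjusted p = 0.575, edgeR). FN1 was at 86.6, 87.5, and 59.7 CPM and TIMP2 at 179, 216, and 140.3 CPM, and both groups overlapped with vehicle (log2 fold changes 0.48 and 0.46, adjusted p = 0.762 and 0.734, edgeR). Within letters a, b, and c, each library was above its vehicle library, by ratios of 1.33, 1.67, and 1.18 for FN1 and 1.2, 1.6, and 1.31 for TIMP2, and neither gene passed with the letter as a block. TIMP1 was at 120.1, 146, and 145 CPM, inside the vehicle range. MMP1 was at 1.90, 2.45, and 3.68 CPM and MMP2 at 0.760, 2.86, and 6.54 CPM, and PLAUR at 28.7, 35.4, and 48.2 CPM, all overlapping with vehicle. MMP14 had 12 counts in Sample 4b and 6 in Sample 4c and none in Sample 4a.

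When 1,25(OH)2D3 was added to osimertinib, FN1 was higher in each library than with osimertinib alone. FN1 was at 224, 120, and 122 CPM in Samples 5a, 5b, and 5c, above the highest osimertinib library at 87.5 CPM. The log2 fold change was 0.99 (SE 0.26, adjusted p = 0.581, edgeR), and the ratios within letters a, b, and c were 2.58, 1.37, and 2.04. TIMP2 was at 397, 303, and 208 CPM, which overlapped with osimertinib alone through Sample 5c, with a log2 fold change of 0.75 (SE 0.24, adjusted p = 0.841, edgeR). Within letters a, b, and c, the TIMP2 ratios were 2.22, 1.40, and 1.48, all above 1, and with the letter as a block the adjusted p was 0.114 (edgeR), within a range of 0.114 to 1 over the alternatives. MMP2 had 0, 5, and 2 counts (0, 1.17, and 0.471 CPM) with both agents, and its log2 fold change was -2.61 (95% interval -5.20 to -0.03, adjusted p = 1, edgeR), and with single libraries left out it ran from -3.79 (without Sample 5b) to -1.72 (without Sample 4c). Of the 8 members, 0 passed by edgeR or DESeq2, where edgeR called 0.096% of genes, and 3 (FN1, MMP2, and TIMP2) had an unadjusted p under 0.05, against 4.16% of all genes. TIMP1 (110.3, 138, and 160 CPM), MMP1 (2.80, 3.05, and 3.54 CPM), PLAU (229, 138, and 169 CPM), and PLAUR (29.2, 43.0, and 48.5 CPM) overlapped with osimertinib alone.

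Against vehicle, FN1 rose with both agents and was the only member called, where 0.496% of genes were called. FN1 was 2.76-fold higher than with vehicle (log2 fold change 1.46, SE 0.27, adjusted p = 0.0485, edgeR), with group means of 155 ± 59.3 CPM with both agents and 56.1 ± 8.08 CPM with vehicle (SD, n = 3 each) and no overlap. It did not pass in 8 of 15 alternatives, among them each single library left out, Sample 3a kept in, and the compared groups alone, with adjusted p from 3.89e-05 to 0.231 over all 15. TIMP2 was 2.32-fold higher with no overlap (log2 fold change 1.21, SE 0.24, adjusted p = 0.071, edgeR). By the rule given below, the letters were taken to pair the libraries of these groups, which the labels do not state. With the letter as a block, 3 members were called in place of 1. These were FN1 (log2 fold change 1.42, adjusted p = 0.00782), TIMP2 (1.19, adjusted p = 0.00714), and MMP2 (-3.36, adjusted p = 0.0379), by edgeR. The adjusted p of TIMP2 ran from 0.000258 to 0.321 over its alternatives and that of MMP2 from 0.0379 to 0.569. Without the block, 4 members (FN1, MMP2, PLAU, and TIMP2) had an unadjusted p under 0.05, against 12.5% of all genes, and DESeq2 called FN1 and TIMP2.

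Adding osimertinib to 1,25(OH)2D3 was set against 1,25(OH)2D3 alone, with Sample 3a left out, so letter a was in the combined group only. No member passed by edgeR, where 0.256% of genes were called, DESeq2 called MMP1 and TIMP1, and 3 members (MMP1, TIMP1, and PLAU) had an unadjusted p under 0.05, against 11.6% of all genes. TIMP1 was at 110.3 to 160 CPM with both agents and at 309 and 332 CPM with 1,25(OH)2D3 alone, a log2 fold change of -1.24 (SE 0.26, adjusted p = 0.0954, edgeR). MMP1 was at 2.80 to 3.54 CPM with both agents and at 18.2 and 34.0 CPM without osimertinib, a log2 fold change of -3.06 (SE 0.72, adjusted p = 0.139, edgeR). Sample 3a lay within the range of the libraries given both agents for TIMP1 and just above it for MMP1. With Sample 3a kept in, the log2 fold changes were -0.93 for TIMP1 and -2.58 for MMP1. With the replicate block, TIMP1 was called, 1 member in place of 0 (log2 fold change -1.08, adjusted p = 0.0323, edgeR), and its adjusted p ran from 0.00158 to 0.524 over the alternatives. By the rule given below, the letters did not pair these groups (correlations of 0 for b and 0.107 for c). For FN1 the libraries of these groups overlapped (log2 fold change 0.09, 95% interval -0.55 to 0.74).

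Whether the response to 1,25(OH)2D3 differed with and without osimertinib was tested as a difference of differences. No gene of the 12503 passed by edgeR (0% called), 2.64% of them had an unadjusted p under 0.05, and DESeq2 called 11 genes, none of them a member. All 8 members had a log2 difference below 0, with a median of -0.69 against 0.01 over all genes. Each difference uses the same libraries, with letter a missing from the 1,25(OH)2D3 group. Several members also vary together, so the 8 signs are not 8 separate observations. TIMP1 had the lowest p (log2 difference -0.93, SE 0.35, unadjusted p = 0.0238 in the edgeR fit, adjusted p = 1). MMP1 had a log2 difference of -1.91 (95% interval -4.09 to 0.28) and FN1 of -0.39 (95% interval -1.25 to 0.48). For TIMP2 the log2 difference was -0.24, with an interval of -1.04 to 0.55.

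**Figure D3:**
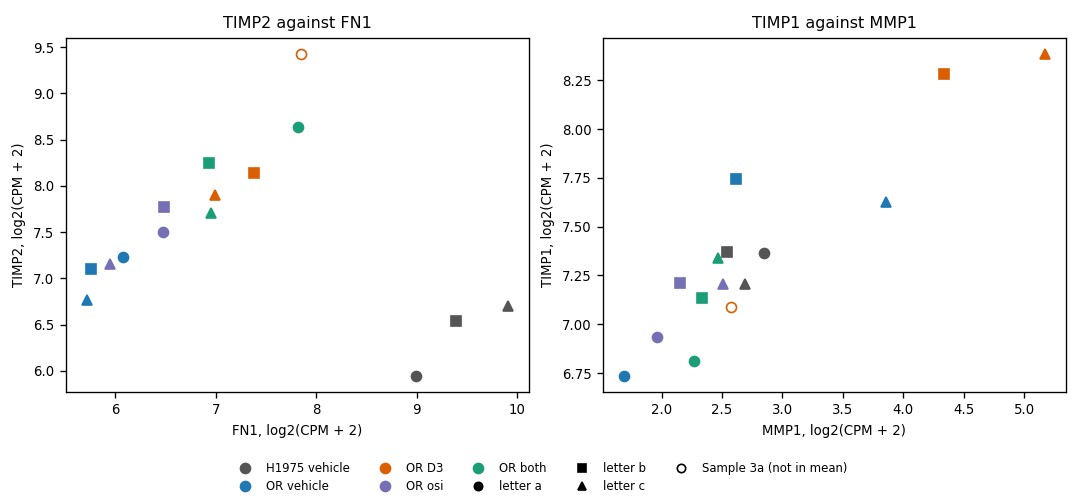
TIMP2 against FN1 (left) and TIMP1 against MMP1 (right), both axes as log2(CPM + 2), with 1 symbol for each of the 15 libraries, colours for the groups, shapes for the replicate letters, and the open circle for Sample 3a. Within H1975–OR, FN1 and TIMP2 lie along a line (r = 0.96 over 11 libraries), and the 3 H1975 libraries lie apart from it.

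Over the 11 H1975–OR libraries without Sample 3a, the members fell into sets that varied together, as a description of libraries that share groups and replicate letters. FN1 and TIMP2 had a Pearson r of 0.96 on the log2(CPM + 2) scale, and FN1 and MMP2 had -0.72. MMP1 and TIMP1 had 0.92, MMP1 and PLAUR 0.89, and TIMP1 and PLAUR 0.88. PLAU and PLAUR, enzyme and receptor, had only 0.44. Among 10664 genes over 14 libraries, the gene most like FN1 was ZBTB38 (r = 0.967), the gene most like PLAU was RAP2B (0.982), and the gene most like PLAUR was SPATA2L (0.944). MMP1 was most like TIMP1 (0.918), TIMP1 was most like IGFBP4 (0.946), and TIMP2 was most like MFAP4 (0.912). Over the 11 H1975–OR libraries alone, the first place was held by other genes for 5 of the 6, namely TIMP2 for FN1, CD52 for MMP1, TSKU for TIMP2, PNP for PLAU, and RHOB for PLAUR, while IGFBP4 kept it for TIMP1.

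The replicate letter moved with PLAUR and TIMP1 in H1975–OR. In the vehicle, osimertinib, and combined groups, PLAUR was at 25.7 to 29.2 CPM in the 3 letter a libraries and at 35.4 to 73.8 CPM in the 6 others. TIMP1 was likewise at 105 to 120.1 CPM in letter a and at 138 to 212 CPM in letters b and c. The letter a range did not overlap with the other for either gene, and Sample 3a, also of letter a, had 21.1 CPM of PLAUR. BSG separated in the same way (961 to 1160 against 1440 to 1730 CPM), while PLAT did not (43.5 to 61.1 against 34.8 to 88.6 CPM). Over all genes passing the filter, letter a deviations correlated between these groups at 0.31 to 0.464. The share of all genes that separate by letter was not computed. PLAU did not follow the letter in the same way, with 229 to 236 CPM in letter a and 138 to 324 CPM in the others. The ratio of PLAU with both agents to vehicle was 0.969 in letter a, 0.498 in b, and 0.521 in c. The labels give the letters as replicates only, and their part in the results was not tested beyond the block and the fits without letter a.

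**Figure D4:**
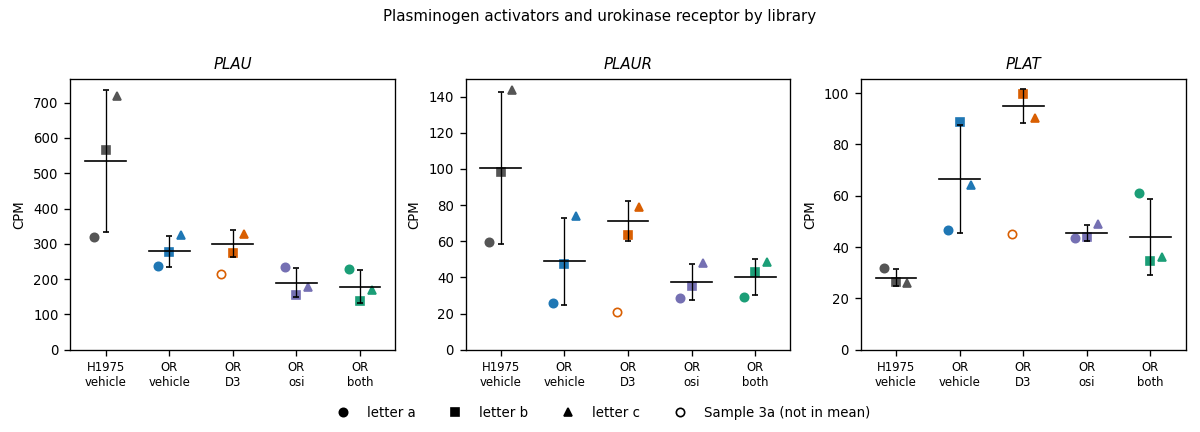
CPM (vertical axes, linear from 0) of PLAU, PLAUR, and PLAT in the 15 libraries of the 5 groups, with symbols, lines, bars, and group names as in the plot of the 9 genes. In H1975–OR the letter a libraries (circles) have the lowest PLAUR values, and PLAT lies above all H1975 libraries in every H1975–OR library.

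In the lists of related genes, 1 gene was called by edgeR under treatment. Among the other proteolysis genes, edgeR called 0 in each of the 6 comparisons within H1975–OR, where it called 0% to 0.496% of all genes. Of the 18 or 19 tested, between 0 and 4 had an unadjusted p under 0.05, against 2.64% to 12.5% of all genes. DESeq2 called at most 1, PLAT. That call was for both agents against 1,25(OH)2D3, where PLAT was at 61.1, 34.8, and 36.3 CPM against 99.6 and 90.2 CPM in Samples 3b and 3c, without overlap (log2 fold change -1.11, SE 0.28, adjusted p = 0.164, edgeR), and Sample 3a was at 45.2 CPM. Among the fibronectin receptors and partners, edgeR called 0 and DESeq2 at most 2, SDC2 and TGM2. At an unadjusted p under 0.05, up to 6 of 15 tested passed (both agents against vehicle), against 12.5% of all genes there. TGM2, which crosslinks fibronectin, was at 46.8, 232, and 159 CPM with vehicle and at 33.6, 30.3, and 29.8 CPM with osimertinib, without overlap (log2 fold change -2.22, SE 0.47, adjusted p = 0.219, edgeR). Of the AP-1 and ETS genes, ETS2, an ETS factor, rose with both agents against vehicle (log2 fold change 0.88, adjusted p = 0.0398, edgeR), where 0.496% of all genes were called. JUNB, an AP-1 subunit, was at 49.0, 76.2, and 87.2 CPM with vehicle and at 114, 159, and 153 CPM with both agents, also without overlap (log2 fold change 1.00, adjusted p = 0.117, edgeR). For both agents against vehicle, 6 of the 10 tested had an unadjusted p under 0.05, against 12.5% of all genes. DESeq2 called 3 there, ETS2 and JUNB among them. In the other comparisons within H1975–OR, edgeR called 0 of these factors and DESeq2 at most 2. Of the 10 tested, between 0 and 3 had an unadjusted p under 0.05, against 2.64% to 11.6% of all genes.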

How the data were processed

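RNA was sequenced in 15 libraries of H1975 and H1975–OR cells from a stranded total RNA kit. The authors quantified transcripts of hg38 with Kallisto and used tximport to obtain gene values. The deposited values are labelled raw counts and are estimated counts per gene. The tximport settings behind them, including any scaling for length, were not stated. The processing notes of the submitters name CASAVA 1.8.2, STAR 2.5.2b, kallisto 0.43.0, and GRCh38. The transcript annotation was not given in the sources used here.

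The estimated counts were rounded. Genes passing filterByExpr (minimum count 10, minimum total 15) were compared with edgeR 4.0.16 (R 4.3.3) by the quasi-likelihood test with TMM scaling and Benjamini-Hochberg adjustment over all genes tested, at 0.05. One fit of 8 libraries gave H1975–OR against H1975 and 1,25(OH)2D3 against vehicle, and one of 11 H1975–OR libraries gave the rest, both without Sample 3a. The tests were tried on simulated data. Correlations used log2(CPM + 2). Intervals are 95% intervals, and floors of 3 counts cover counting error only.

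Alternatives were RLE size factors, DESeq2 1.42.0, other filters, Sample 3a kept in, the replicate block, other sets of libraries, and each library left out. Letters were taken to pair libraries where each correlation of same-letter deviations was over 0.1, which held among the vehicle, osimertinib, and combined groups (0.118 to 0.464) but not between H1975 and H1975–OR (-0.03 to 0.022). It did not hold either between the vehicle group and the group of Sample 3a (0.07 for letter b and 0.108 for letter c). Letter a could not be assessed there, because Sample 3a was left out. Named beside the 9 members are the genes called within 3 lists, genes that define a role, the CYP24A1 check, markers, and the genes most like each member with a mean of at least 5 CPM. TGM2, JUNB, TSKU, PNP, and RHOB were named after their values were seen. The members and lists were chosen with earlier results of these data known. Promoters were matched to RefSeq by symbol for 6 of the 9 genes, and protein sequences were not used here. One listed gene is not reported here.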

Additional observations from a re-analysis of the deposited data

Results flagged for a closer look

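TIMP2 stood at 687 CPM in Sample 3a, which was left out of the fits. This was more than 2 times the level of TIMP2 in each vehicle library (at most 148 CPM) and in each of Samples 3b and 3c (280.3 and 238 CPM). The part of the low correlation of Sample 3a with its group (0.912) or of its mitochondrial share (1.54%) in this value was not tested.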

How the results depend on the processing

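Of the fold changes of single members under the alternatives, 828 in all, 781 kept their side of the threshold, 21 lost it, and 23 gained it. The count of members called for H1975–OR against H1975 was 3, and it was 6 with DESeq2, 1 with the compared groups alone, and 1 to 4 with single libraries left out. Only FN1 was called in each of these. MMP2 and PLAU were not called when Sample 1b, 1c, 2b, or 2c was left out, nor MMP2 without Sample 1a or PLAU without Sample 2a. For 1,25(OH)2D3 against vehicle, where the letters did not pair the groups, the count was 0. It was 2 with DESeq2 and 2 in the added fit of 11 libraries with the replicate block. For both agents against vehicle it was 1, and it was 2 with DESeq2, 2 with no filter on low counts, 2 (FN1 and PLAU) without the letter a libraries (added after seeing the data), 3 with the replicate block, 0 with Sample 3a kept in, 0 with the compared groups alone, and 0 to 1 with single libraries left out. Without Sample 5c that 1 was TIMP2, and without any of the other 5 libraries no member was called. For both agents against 1,25(OH)2D3 it was 0, and it was 2 with DESeq2, 1 with the replicate block, 1 with all 14 libraries in one fit, and 2 (TIMP1 and PLAU) without the letter a libraries. In the remaining comparisons no alternative called a member. The replicate block left the count at 3 for H1975–OR against H1975, where it called PLAUR in place of MMP2 and the letters did not pair the libraries. Beside the calls given here and in the report, the block changed no other call of a member.

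Without Sample 2c, MMP1 stood at a log2 fold change of 0.00 for osimertinib against vehicle and 0.22 for both agents against vehicle, and PLAUR at 0.04 for osimertinib against vehicle, in place of -1.15, -0.93, and -0.39. With each compared library left out in turn, the log2 fold changes ran from -1.63 to 0.00 for MMP1 and from -0.69 to 0.04 for PLAUR with osimertinib, and from -1.41 to 0.22 for MMP1 with both agents. A further 31 changes of sign were of differences smaller than their SE. The causes were not tested. Over all genes, the number called ran from 1426 to 3041 for H1975–OR against H1975, from 5 to 124 for 1,25(OH)2D3, from 1 to 117 for osimertinib, from 2 to 66 for both agents against osimertinib, from 4 to 461 for both agents against vehicle, and from 0 to 329 for both agents against 1,25(OH)2D3. Depth limited MMP14, TIMP3, and MMP2, which held under 60 counts in every library.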
